A study of Mus musculus with 30 samples.

Results

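Iron handling was followed through 10 genes, taken by symbol from the 36103 genes of the count table: Hamp, Bmp6, Tfr2, Tfrc, Trf, Slc11a2, Fth1, Ftl1, Slc40a1 and Hmox1. Each symbol matched 1 gene. RNA-seq had been run on Mtm1KO males (Mtm1-/y), which lack the X-linked gene for myotubularin, a phosphoinositide phosphatase whose loss causes X-linked myotubular myopathy, and on WT male littermates. All mice were of the 129Pas strain and were dissected at 5 weeks. Heart and gastrocnemius, a limb muscle, had 4 libraries of each genotype, diaphragm had 4 WT and 3 Mtm1KO libraries, and liver had 3 WT and 4 Mtm1KO libraries, 30 in all. A library holds RNA of whole tissue from 1 mouse, so every cell type of the organ, and any tissue attached to it, is in the value.

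Hamp encodes the precursor of hepcidin, the peptide hormone that hepatocytes release into the blood. Hepcidin binds ferroportin, the iron exporter encoded by Slc40a1, and has it degraded, so less iron leaves the gut, macrophages and liver. Transcription of Hamp is driven by bone morphogenetic proteins such as Bmp6, which act through SMAD proteins, and by interleukin 6, which acts through STAT3. Cells take up iron bound to transferrin (Trf) through transferrin receptor 1 (Tfrc), the divalent metal transporter Slc11a2 carries it out of the endosome, and ferritin (subunits Fth1 and Ftl1) stores it. Tfr2 is a second transferrin receptor with a role in iron sensing by hepatocytes and erythroid cells, and Hmox1 is heme oxygenase 1, which frees iron from heme.

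Several of these transcripts carry an iron-responsive element, a hairpin bound by iron regulatory proteins. In the 5′ UTR it lets iron-poor cells hold back translation, and in the 3′ UTR it lets them keep the transcript from decay. A search of the mouse transcripts (GENCODE M21, mm10) for the loop CAGTGN, with a C before a stem of 5 pairs, found 1 hairpin each in the 5′ UTR of Fth1, Ftl1 and Slc40a1 and 4 in the 3′ UTR of Tfrc. The pattern occurred in 294 of 21901 protein-coding genes (1.34%). The hairpins are shown because iron acts through them after transcription, and for Fth1, Ftl1 and Slc40a1 it acts on translation, which RNA counts do not record. Each is written 5′ to 3′ with its loop in capitals.
Fth1, chr19:9982732-9982760, plus strand: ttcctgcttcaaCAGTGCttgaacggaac
Ftl1, chr7:45459779-45459807, minus strand: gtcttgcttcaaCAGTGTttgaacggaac
Slc40a1, chr1:45925465-45925493, minus strand: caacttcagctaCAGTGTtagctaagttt
Tfrc, the first of 4, chr16:32631219-32631247, plus strand: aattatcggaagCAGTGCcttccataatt
Tfrc, the last of 4, chr16:32631710-32631738, plus strand: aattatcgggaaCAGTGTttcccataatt
No hairpin of this form was found in the annotated transcripts of the other 6 members. Slc11a2 is known to have an iron-responsive element in the 3′ UTR of 1 of its isoforms, which these letters did not match.

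Library totals lay between 24873817 and 44289343 counts. Mtm1 itself (chrX:71210767-71315691) was lower in every Mtm1KO library than in every WT library of the same tissue, with log2 fold changes of -2.07 in gastrocnemius, -2.26 in diaphragm, -2.58 in heart and -1.60 in liver, the last with an adjusted p of 0.36 by edgeR and 1.3e-06 by DESeq2. Levels are given as CPM, the counts of a gene relative to the depth of its library after TMM scaling over the 30 libraries. The marker genes of each organ were high where the label put them. The 10 hepatocyte markers summed to 181800 to 234700 CPM in liver, the 6 skeletal muscle markers to 119400 to 234600 CPM in gastrocnemius, and the 6 heart markers to 35240 to 44170 CPM in heart. The diaphragm libraries stood apart, because the same 10 hepatocyte markers summed there to between 471 and 46680 CPM, against 7.70 to 143 CPM in heart and 19.8 to 134 CPM in gastrocnemius.

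The 10 genes had different levels over the 4 tissues in WT mice. Per kilobase of exon, the scale on which genes can be compared, Hamp was highest in liver at a mean of 1755 CPM per kb, above Trf at 769, Fth1 at 328 and Ftl1 at 211. In gastrocnemius Fth1 led at 277 CPM per kb and Tfrc followed at 69.2, while Hamp stood at 1.37 and Tfr2 at 0.0504. Each pair of tissues was compared in 1 edgeR fit over the 15 WT libraries. All 10 members differed between liver and heart and between liver and diaphragm at an adjusted p under 0.05, where 76.4% and 76.1% of all genes tested did. Between liver and gastrocnemius 9 of 10 did (79.5% of all genes), the exception being Fth1. Among the muscle tissues, 6 of 10 differed between heart and diaphragm (51.7% of all genes), 5 of 10 between heart and gastrocnemius (61.3%), and 6 of 10 between diaphragm and gastrocnemius (54.4%). For a list of 10 genes all of these shares, those with liver included, lie near the shares of all genes and are no result about the members.

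Mean WT levels of Hamp ran from 720 CPM in liver to 80.8 in diaphragm, 11.1 in heart and 0.563 in gastrocnemius, and each neighbour in that order differed (adjusted p = 0.015, 0.029 and 0.0061). The diaphragm mean was drawn from libraries of unlike liver signal. The hepatocyte markers summed to 471 CPM in WT diaphragm replicate 3 and to 24790 to 36480 CPM in the other WT diaphragms. In replicate 3, Hamp was the lowest of its group and below most WT hearts. The part of liver signal in this order of tissues was not tested. The difference between diaphragm and heart was lost in 4 of 15 fits that left out 1 library. Heart minus diaphragm was -1.99 (adjusted p = 0.11) without WT diaphragm replicate 1, beside -2.86 with it, and the adjusted p was 0.068, 0.055 and 0.066 without WT heart replicate 1, 2 or 3. Tfrc ran the other way. Its mean was 428 CPM in gastrocnemius, 348 in diaphragm and 303 in heart, which did not differ beyond their spread, and 40.7 in liver, 2.90 log2 units below heart (SE 0.51, adjusted p = 0.00011). Bmp6 was highest in heart at 22.5 CPM and lowest in liver at 3.93 CPM. Heart minus diaphragm was 0.96 (adjusted p = 0.0053). Leaving out 1 library moved it between 0.48 and 1.13, and it passed each time (adjusted p up to 0.028). The levels of Bmp6 in diaphragm (11.7 CPM) and gastrocnemius (9.06 CPM) did not pass at adjusted p = 0.30. Diaphragm minus gastrocnemius was, however, 0.83 (adjusted p = 0.013) with library totals alone, and 0.40 (adjusted p = 0.019) when WT heart replicate 4 was left out of the fit. Fth1 varied least, from 1136 CPM in liver to 612 CPM in heart. Slc40a1 stood at 247 CPM in liver and at 51.3, 42.2 and 32.7 CPM in diaphragm, gastrocnemius and heart, which did not differ beyond their spread between neighbours. In diaphragm, Slc40a1 was 24.4 CPM in WT replicate 3, the library of least liver signal, against 57.8 to 62.5 CPM in the other WT diaphragms. Hmox1 was 20.7 CPM in liver, 13.5 in diaphragm and 12.3 in heart, the last pair not differing beyond their spread, and 7.17 in gastrocnemius. With library totals alone, Hmox1 did not pass between liver and diaphragm (0.14, adjusted p = 0.57).

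In liver, the organ that makes circulating hepcidin, no member passed between the genotypes, and by edgeR Mtm1 itself did not pass there. Hamp (chr7:30942368-30944032, minus strand, GRCm38) was 924, 714 and 520 CPM in the 3 WT livers and 528, 856, 499 and 609 CPM in the 4 Mtm1KO livers. The groups overlapped, and the log2 fold change was -0.25 (SE 0.24, adjusted p = 0.97). Of the 10 members, 0 passed by edgeR, 0 passed by DESeq2 and 0 had an unadjusted edgeR p under 0.05, in a tissue where 0% of all genes passed by edgeR and 0.149% by DESeq2. Only Ftl1 separated the genotypes without overlap, at 262, 284 and 304 CPM in WT and 314, 350, 353 and 334 CPM in Mtm1KO (log2 fold change 0.21, SE 0.10, adjusted p = 0.97), and 6.05% of all genes did not overlap in liver, 3.45% with Mtm1KO higher. Tfrc was 54.3, 37.6 and 30.1 CPM in WT livers and 38.1, 18.0, 30.9 and 31.9 CPM in Mtm1KO livers (-0.50, SE 0.27), and the other 7 members had log2 fold changes between -0.23 and 0.18. Mtm1KO replicate 2, with the most Hamp and least Tfrc of its group, had 50.2 CPM of Kupffer cell markers, against 152.5 to 225.9 CPM in the other livers. Without it, the log2 fold change by DESeq2 was -0.44 (SE 0.21) for Hamp, beside -0.24, and -0.31 for Tfrc, beside -0.49, and neither passed. The cause was not tested.

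**Figure D1:**
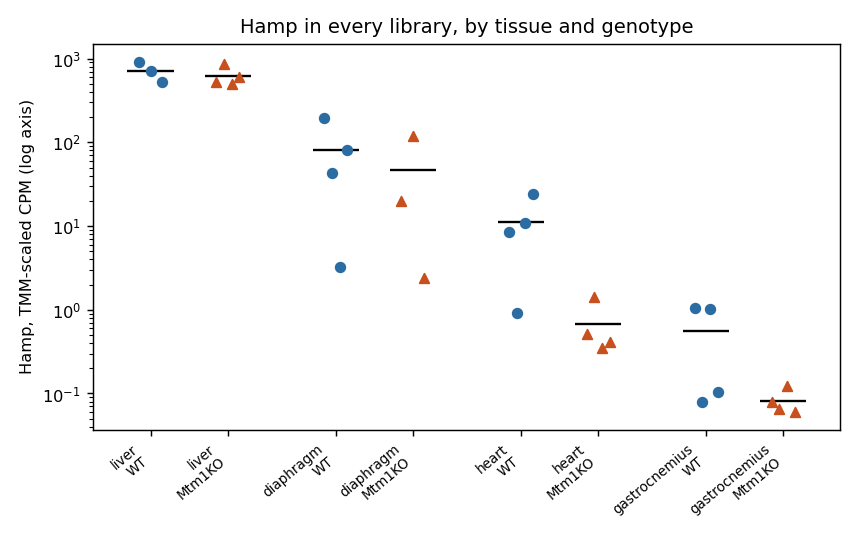
Hamp in each of the 30 libraries on a log axis of TMM-scaled CPM, circles for WT and triangles for Mtm1KO, with a line at each group's mean. The liver groups overlap near 720 and 623 CPM, the diaphragm libraries of both genotypes spread from 2.43 to 196 CPM, and in heart 3 WT libraries lie above every Mtm1KO library while the fourth lies among them.

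The promoter of Hamp is shown because the BMP and STAT3 inputs meet there, and because its neighbour Hamp2, a second hepcidin-like gene, differs in one of them. Of the 10 members, 6 had a promoter in the RefSeq table (GRCm38.p6). The windows below run from 150 to 31 bases before the start site of each gene. Capitals mark 2 motifs searched on both strands, GGCGCC, the core of the BMP-responsive element, and TTCTTGGAA, a STAT site.
Hamp, chr7:30944060-30944179, minus strand: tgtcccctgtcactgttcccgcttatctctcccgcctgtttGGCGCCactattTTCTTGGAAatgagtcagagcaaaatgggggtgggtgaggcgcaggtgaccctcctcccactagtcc
Hamp2, chr7:30924212-30924331, minus strand: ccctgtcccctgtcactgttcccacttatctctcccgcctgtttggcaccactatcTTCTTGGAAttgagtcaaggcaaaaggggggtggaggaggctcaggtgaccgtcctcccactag
Hamp held GGCGCC and TTCTTGGAA, and Hamp2 held TTCTTGGAA alone. Of 32851 promoters in the table, 11.9% held GGCGCC and 0.417% held TTCTTGGAA, and of the other members only Tfrc held either, a GGCGCC 89 bases before its start. The Hamp and Hamp2 transcripts were 88.8% identical and shared 60 of the 361 stretches of 50 bases in Hamp, so reads from those stretches had 2 possible origins and would not have been counted for either gene. Hamp2 was 81.5, 91.7 and 143 CPM in WT liver and 67.2, 56.8, 44.1 and 104 CPM in Mtm1KO liver (log2 fold change -0.68, SE 0.30, adjusted p = 0.97).

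In heart, Hamp was the member with the widest difference between the genotypes. It was 8.53, 0.925, 10.9 and 23.9 CPM in the 4 WT hearts and 0.519, 1.41, 0.346 and 0.418 CPM in the 4 Mtm1KO hearts, from 34 to 900 counts in WT and 10 to 42 counts in Mtm1KO. WT replicate 2 fell within the Mtm1KO range, so the groups overlapped. The log2 fold change was -4.05 (SE 0.89) with an adjusted p of 0.46 by edgeR and 0.0051 by DESeq2. No member of the 9 tested in heart passed by edgeR, where 0.00656% of all genes passed, and 1 member, Hamp, had an unadjusted edgeR p under 0.05. By DESeq2 the same single member passed, where 0.461% of all genes did. Without WT replicate 2 the log2 fold change was -4.44 and edgeR's adjusted p 0.039, and without WT replicate 4 it was -3.34 with an adjusted p of 0.66 by edgeR and 0.076 by DESeq2. The DESeq2 call was lost in 4 of 8 such fits, the others being those without Mtm1KO replicate 1, 3 or 4 (adjusted p = 0.063, 0.064 and 0.057).

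Hamp in heart was most like Bmp10, an atrial gene. Over the 8 heart libraries the 5 genes whose log2 CPM was most like that of Hamp, by Pearson's r, were Bmp10 (0.992), Ryr3 (0.988), Cacna2d2 (0.982), Apcdd1 (0.977) and Inhba (0.973). Bmp10 is a BMP ligand made in the right atrium, and it was 117, 0.408, 145 and 765 CPM in the WT hearts and 0.0305, 3.83, 0 and 0.546 CPM in the Mtm1KO hearts. WT replicate 2, with the least Hamp of its group, had the least Bmp10 of its group, and Mtm1KO replicate 2, with the most Hamp of its group, had the most. Nppa, the atrial natriuretic peptide, was 1541, 568, 2086 and 16040 CPM in WT and 125, 2626, 540 and 129 CPM in Mtm1KO. The 6 atrial markers summed to 667 to 27310 CPM in WT and 137 to 5107 CPM in Mtm1KO, so the sums overlapped. All 6 had a log2 fold change below 0, but none passed by edgeR and 1 had an unadjusted edgeR p under 0.05. By DESeq2 1 passed lower, where 0.461% of all genes in heart passed in either direction. Across the genotypes Hamp did not follow that sum in every library, since Mtm1KO replicate 2 had 5107 CPM of atrial markers, above WT replicates 1 and 3 (3347 and 3905 CPM), and less Hamp than either. Bmp10 was at 0 counts in 1 Mtm1KO library. All these r values share the same 8 libraries and the same difference in atrial signal between them. Bmp10 was like Hamp outside the heart too. Over the 7 diaphragm libraries its r was 0.918 with Hamp and 0.984 with Alb, while the other atrial markers had r of 0.256 or less with Alb. In bulk tissue, fewer cells of a type and less RNA per cell cannot be told apart.

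With the atrial marker score as a covariate, the log2 fold change of Hamp in heart was -1.60 with an adjusted p of 1.00 by edgeR. Bmp10 is 1 of the 6 markers in that score, so a smaller value for Hamp was built in and decides nothing. Without the score Hamp had not passed by edgeR either (adjusted p = 0.46), and with it 1 gene passed higher and 1 lower. Alb (albumin), the defining hepatocyte gene, was 20.9, 0.816, 2.21 and 2.34 CPM in WT hearts and 86.3, 39.5, 24.0 and 31.1 CPM in Mtm1KO hearts, so the 3 WT libraries with the most Hamp had less Alb than any Mtm1KO library. The 10 hepatocyte markers together overlapped, with sums of 7.70 to 143 CPM in WT and 49.9 to 142 CPM in Mtm1KO, and the highest sum was in WT replicate 4, the heart with the most Hamp. Of the 10, 8 had a log2 fold change above 0 and 2 below. Per 1000 Alb counts there were 409 to 10200 Hamp counts in WT heart and 6.01 to 35.7 in Mtm1KO heart, against 3.24 to 8.08 in liver. Mtm1KO heart replicate 1, at 6.01, lay within the liver range. The part of liver signal in the Hamp values of heart was not tested.

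**Figure D2:**
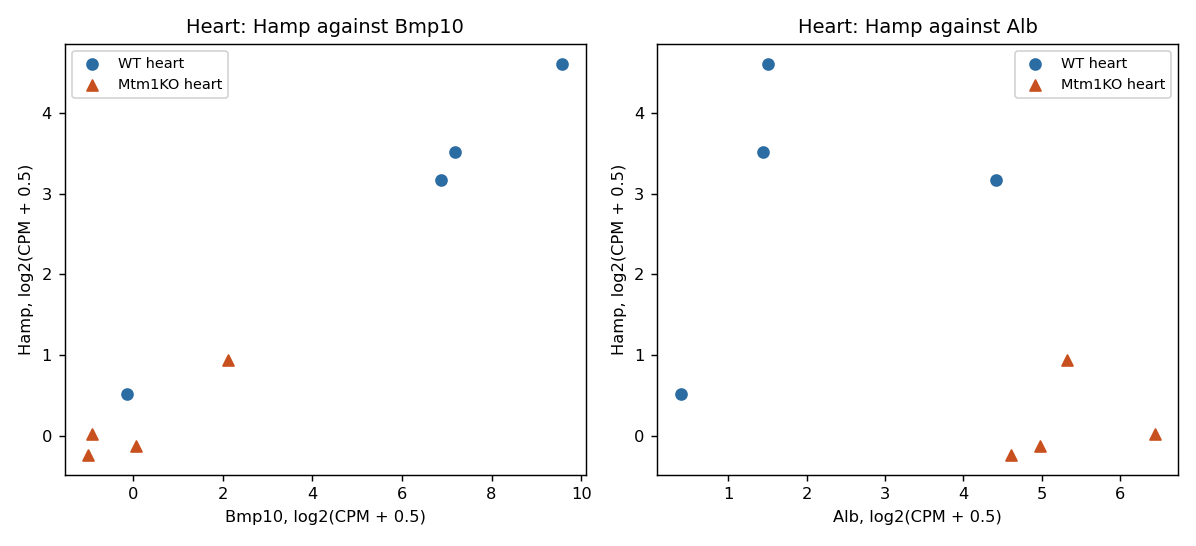
Hamp against Bmp10 (left) and against Alb (right) in the 8 heart libraries, both axes as log2(CPM + 0.5), circles for WT and triangles for Mtm1KO. Hamp and Bmp10 are high in the same 3 WT libraries, WT replicate 2 lies beside the Mtm1KO hearts, and those 3 WT libraries have less Alb than any Mtm1KO library.

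The other 8 members tested in heart had log2 fold changes between -0.52 (Bmp6) and 0.27 (Tfrc), with adjusted p of 0.55 or more by edgeR. Bmp6 was 15.8, 14.0, 21.0 and 39.0 CPM in WT and 13.7, 20.7, 15.3 and 13.4 CPM in Mtm1KO. Tfrc was 384, 370, 389 and 70.6 CPM in WT and 423, 257, 350 and 443 CPM in Mtm1KO. WT replicate 4, the library with the highest atrial signal, was the lowest of its group for Tfrc, Fth1 (459 CPM against 637 to 713) and Slc11a2 (26.5 CPM against 34.5 to 35.9), and the highest for Slc40a1 (49.4 CPM against 21.4 to 35.8), Bmp6 and Hmox1. Tfr2 had 2, 0, 0 and 0 counts in WT and 6, 8, 1 and 4 counts in Mtm1KO, too few for the edgeR filter. The groups overlapped, and its log2 fold change was 3.44 (SE 1.41, adjusted p = 0.40) by DESeq2 and 3.12 (SE 1.08, unadjusted p = 0.0071, adjusted p = 0.50) by edgeR without the filter. A count of 0 in heart allows up to 0.0937 to 0.119 CPM from counting error alone.

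In diaphragm, levels of the hepatic members followed the liver signal of each library. Hamp was 196, 43.5, 3.24 and 80.8 CPM in WT and 20.01, 119 and 2.43 CPM in Mtm1KO, and Alb was 22990, 15620, 252 and 16630 CPM in the same WT libraries and 1491, 28580 and 480 CPM in the Mtm1KO ones. WT replicate 3 and Mtm1KO replicate 4, with the least Alb of their groups, were also lowest for Hamp, Tfr2, Trf and Ftl1. Tfr2 was 99.7, 71.7, 1.04 and 79.7 CPM in WT and 10.5, 159 and 2.19 CPM in Mtm1KO. Per 1000 Alb counts there were 4.10 to 7.01 Tfr2 counts in the 7 diaphragms and 3.30 to 4.88 in the 7 livers, and 2.78 to 13.4 Hamp counts in the diaphragms. Trf ran from 16.4 to 74.0 per 1000 Alb in diaphragm and from 15.4 to 22.7 in liver, with the higher ratios in the diaphragms of least Alb.

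**Figure D3:**
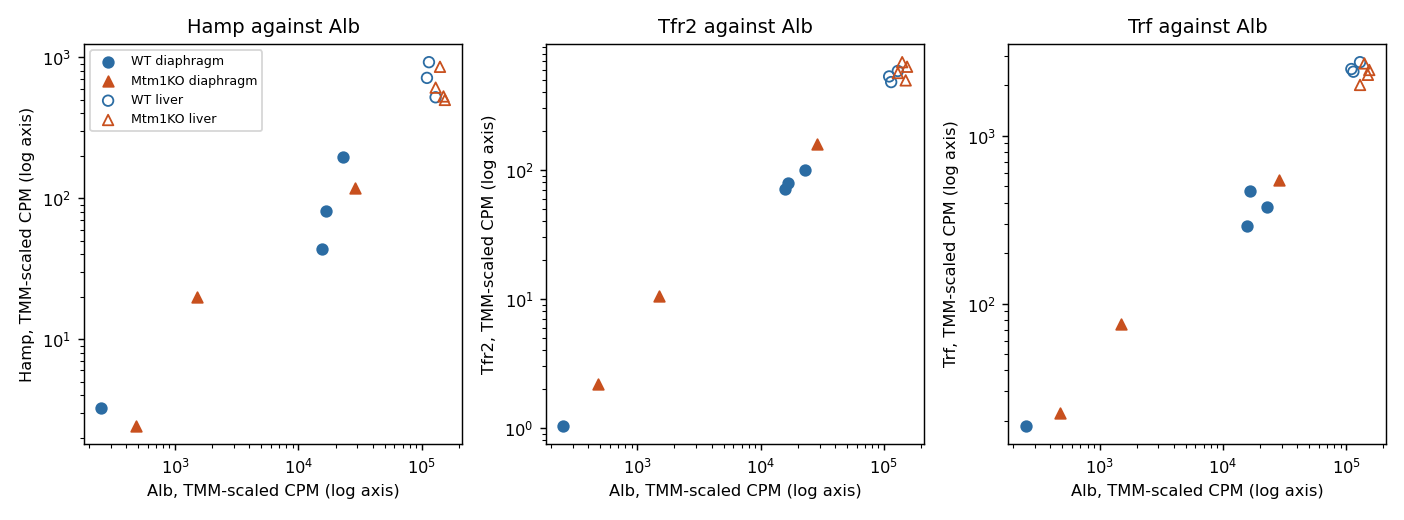
Hamp, Tfr2 and Trf against Alb in the 7 diaphragm libraries (filled) and the 7 liver libraries (open), log axes of TMM-scaled CPM, circles for WT and triangles for Mtm1KO. In diaphragm all 3 genes climb with Alb toward the liver values, and libraries of both genotypes lie along the same course.

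Between the genotypes 0 of 10 members passed in diaphragm by edgeR (0.0119% of all genes), 1 had an unadjusted p under 0.05, and 1 passed by DESeq2 (2.38% of all genes, 0.674% lower), Bmp6 in each case. Bmp6 was 11.8, 13.1, 12.1 and 9.63 CPM in WT and 7.14, 7.498 and 4.12 CPM in Mtm1KO. Every Mtm1KO diaphragm was below every WT diaphragm, as 5.26% of all genes were, and the log2 fold change was -0.89 (SE 0.23), with an adjusted p of 0.29 by edgeR and 0.024 by DESeq2. Leaving out 1 library at a time moved it between -1.03 and -0.66 by DESeq2, and the DESeq2 call was lost without WT replicate 1, WT replicate 2 or Mtm1KO replicate 1 (adjusted p = 0.11, 0.17 and 0.069). Over the 7 diaphragm libraries Pearson's r with Alb on the log2 scale was 0.365 for Bmp6, beside 0.959 for Hamp and 0.997 for Tfr2, and with the hepatocyte score as a covariate Bmp6 was -0.87 (edgeR adjusted p = 0.14). The 8 endothelial markers all had a log2 fold change below 0, none of them past the threshold by edgeR or DESeq2, and their sum was 647 to 737 CPM in WT diaphragm and 541 to 628 CPM in Mtm1KO diaphragm, without overlap. Their part in the Bmp6 value was not tested. For Hamp the difference was -0.75 on the log2 scale (SE 1.45, edgeR adjusted p = 0.94), and -0.23 with the hepatocyte score as a covariate (adjusted p = 0.84). Without Mtm1KO replicate 2, the Mtm1KO diaphragm with the most Alb, it was -2.87, with an SE of 1.61.

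Hmox1 was higher in Mtm1KO gastrocnemius than in WT. It was 7.42, 5.96, 8.93 and 6.36 CPM in the 4 WT muscles and 14.8, 10.3, 17.5 and 12.9 CPM in the 4 Mtm1KO muscles. The groups did not overlap, and the log2 fold change was 0.93 (SE 0.18, adjusted p = 0.0041 by edgeR). In this tissue 29% of all genes tested passed by edgeR and 30.6% did not overlap, and 2 of the 8 members tested passed, 1 higher (14.1% of all genes) and 1 lower (14.9%). Leaving out any 1 library kept Hmox1 past the threshold, at 0.81 to 1.06. In the other tissues it did not pass, at 0.44 in diaphragm, -0.26 in heart and 0.01 in liver. The effect in gastrocnemius was larger than in heart by 1.17 log2 units (heart minus gastrocnemius -1.17, SE 0.26, adjusted p = 0.0070, where 9.38% of all genes differed) and than in liver by 0.90 (liver minus gastrocnemius -0.90, SE 0.27, adjusted p = 0.048, where 4.99% differed). The difference from liver passed narrowly and was lost in 24 of 34 alternatives, 21 of them fits that left out 1 of the 30 libraries, and the difference from diaphragm did not pass (-0.50, SE 0.27, adjusted p = 0.48, where 0.449% of all genes differed).

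Macrophage genes moved with Hmox1 in gastrocnemius. All 10 macrophage markers rose, where 14.1% of all genes did. Their sum was 58.4 to 99.6 CPM in WT and 180 to 223 CPM in Mtm1KO, and no marker was at 0 in any gastrocnemius library. With the macrophage score as a covariate the log2 fold change of Hmox1 was -0.66 (adjusted p = 1.00) in a fit in which 0 of all genes passed, Mtm1 included. The part of macrophages in the Hmox1 result could not be told apart from genotype.

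**Figure D4:**
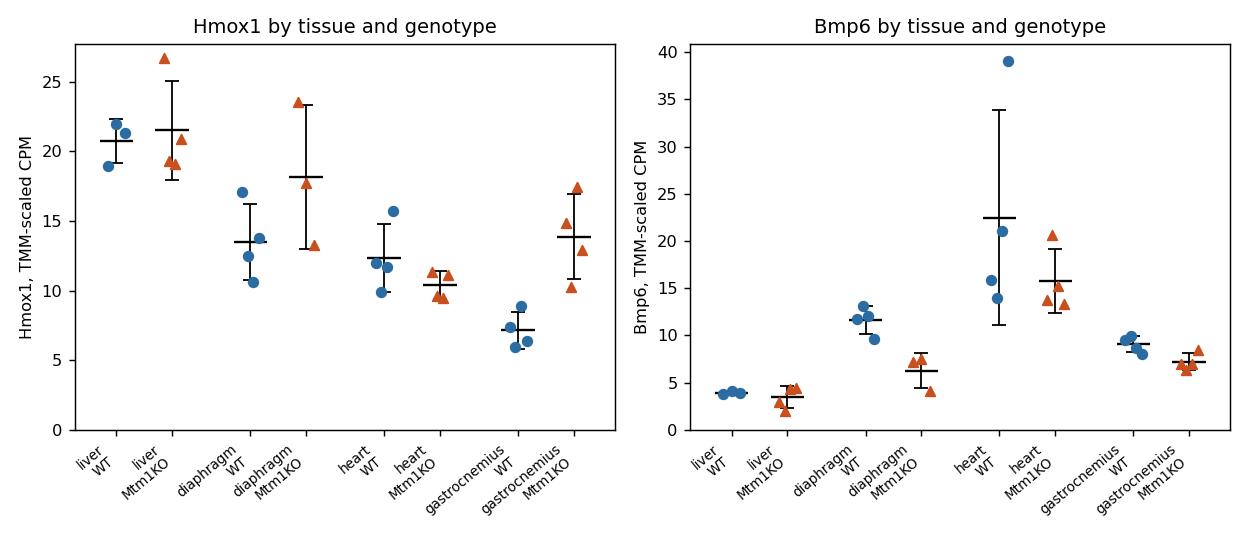
Hmox1 (left) and Bmp6 (right) in each library by tissue and genotype, linear axes of TMM-scaled CPM from 0, with mean and SD of each group. Hmox1 is higher in all 4 Mtm1KO gastrocnemius libraries than in the WT ones and overlaps in the other tissues, and Bmp6 is lower in all 3 Mtm1KO diaphragms and overlaps in the other tissues.

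Bmp6 fell in gastrocnemius as well, by a small margin. It was 9.54, 9.97, 8.70 and 8.05 CPM in WT and 6.98, 6.37, 6.99 and 8.46 CPM in Mtm1KO, so 1 Mtm1KO library lay above 1 WT library. The log2 fold change was -0.35 (SE 0.11, adjusted p = 0.043 by edgeR), and the call was lost in 6 of the 8 fits that left out 1 library, in which the adjusted p reached 0.11. It depends on the scaling too. Scaled by library totals alone, the median of all genes in gastrocnemius was 0.35 rather than 0.02, 7647 genes passed higher and 647 lower rather than 2173 and 2306, and Bmp6 stood at -0.02 (adjusted p = 0.92). A direction given for a gastrocnemius gene is therefore relative to the median gene. Endothelial cells supply most BMP6 in liver. Of the 8 endothelial markers, 4 fell in Mtm1KO gastrocnemius, where 14.9% of all genes fell. Their sum after TMM scaling was 518 to 668 CPM in WT and 393 to 480 CPM in Mtm1KO. These markers were not read with library totals alone, and their part in the Bmp6 value was not tested.

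The iron exporter, the endosomal transporter and the ferritin light chain came near the threshold in gastrocnemius. Slc40a1 was 37.9, 36.8, 58.7 and 35.5 CPM in WT and 23.0, 25.1, 41.7 and 21.9 CPM in Mtm1KO, with replicate 3 well above the rest in both genotypes (log2 fold change -0.62, SE 0.23, adjusted p = 0.073 by edgeR and 0.028 by DESeq2). Without Mtm1KO replicate 3 it passed by edgeR at -0.87 (adjusted p = 0.0072), and without WT replicate 3 it was -0.41 (adjusted p = 0.19). Slc11a2 was 53.7, 51.7, 45.9 and 48.1 CPM in WT and 44.1, 42.4, 46.4 and 34.7 CPM in Mtm1KO (-0.27, SE 0.10, adjusted p = 0.060 by edgeR and 0.049 by DESeq2), and 0.07 when scaled by library totals. Ftl1 was 12.4, 15.3, 13.0 and 11.01 CPM in WT and 19.6, 14.5, 17.3 and 15.3 CPM in Mtm1KO (0.35, SE 0.12, adjusted p = 0.060 by edgeR and 0.059 by DESeq2).

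Tfrc, the main route of iron into muscle, was 510, 302, 461 and 439 CPM in WT gastrocnemius and 269, 418, 378 and 300 CPM in Mtm1KO (-0.34, SE 0.18, adjusted p = 0.18). Fth1 was 854, 1038, 917 and 1037 CPM in WT and 1065, 973, 893 and 895 CPM in Mtm1KO (-0.03, SE 0.09, adjusted p = 0.86), and Trf had a log2 fold change of 0.01 (SE 0.30). Scaled by library totals, Fth1 passed at 0.32 (adjusted p = 0.0074) and Ftl1 at 0.69 (adjusted p = 0.0020), beside a median of 0.35 for all genes. Both ferritin genes have near-identical pseudogene copies, and the 5 copies in the table had at most 0.64 CPM in any library. Reads that fit a gene and a copy equally were dropped in the counting, so the levels of Ftl1 and Fth1 are uncertain and may be too low.

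Hamp and Tfr2 were too low in gastrocnemius for the edgeR filter. Hamp had 34, 2, 32 and 3 counts in WT (1.04, 0.0795, 1.03 and 0.103 CPM) and 3, 2, 4 and 2 counts in Mtm1KO, so WT replicates 1 and 3 stood apart and the other 2 WT muscles were level with Mtm1KO. DESeq2, which kept the gene, gave -2.81 (SE 0.92, adjusted p = 0.013), and edgeR without the filter gave -2.76 (SE 0.82, adjusted p = 0.043). In this tissue 5 members passed by DESeq2 (25.9% of all genes), 1 higher (12.5%) and 4 lower (13.4%). Without WT replicate 1 or WT replicate 3 Hamp did not pass by DESeq2 (adjusted p = 0.099 for each). Alb was also highest in those 2 libraries (67.2 and 52.6 CPM, against 33.3 and 19.4 in the other 2 WT libraries and 2.65 to 37.6 CPM in Mtm1KO), and its part in the Hamp value was not tested. Tfr2 had 14, 2, 6 and 5 counts in WT and 1, 3, 5 and 2 in Mtm1KO (-1.39, SE 0.66, adjusted p = 0.20 by edgeR without the filter).

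**Figure D5:**
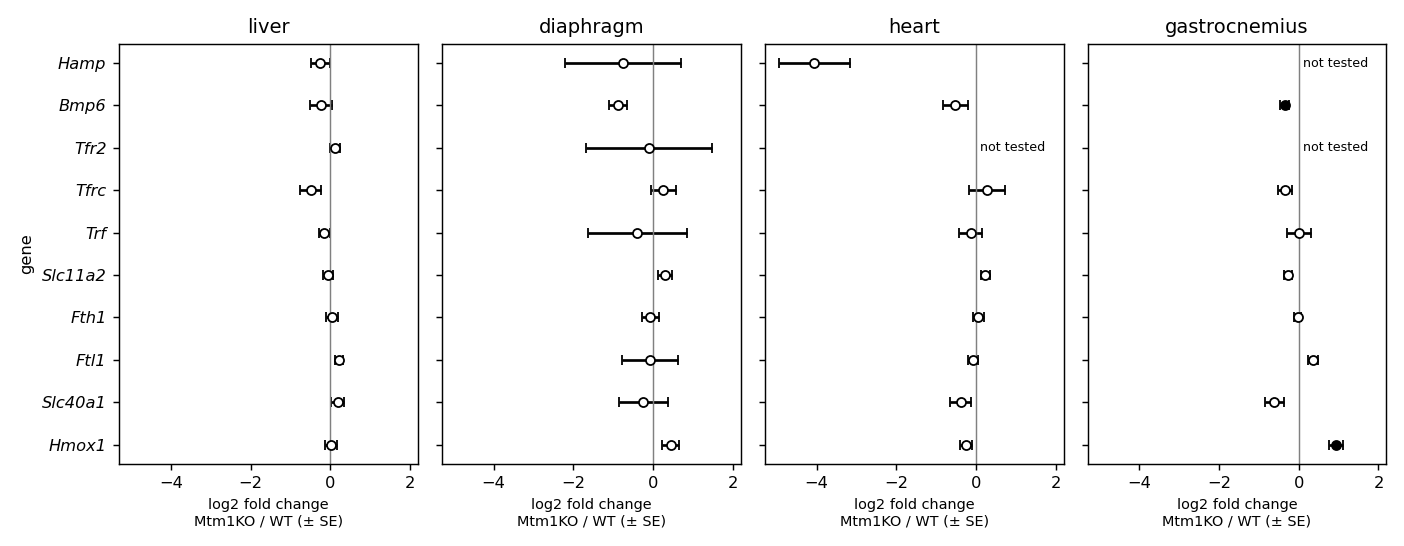
Log2 fold change of the 10 genes, Mtm1KO over WT, in each tissue by edgeR, with bars of 1 SE, filled where the adjusted p is under 0.05. Only Hmox1 and Bmp6 in gastrocnemius are filled, Hamp in heart lies at -4.05, and Hamp, Tfr2 and Trf in diaphragm have the widest bars. Genes below the count filter are marked as not tested.

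Around the 10 genes, lists of pathway partners were read in the same fits. Of 20 regulators of Hamp tested in gastrocnemius, 2 rose and 4 fell, near the 14.1% and 14.9% of all genes, and their median log2 fold change was 0.01, beside 0.02 for all genes. Hfe2 (hemojuvelin), the BMP co-receptor of skeletal muscle and liver, was 739 ± 32.4 CPM in WT and 529 ± 36.1 CPM in Mtm1KO (SD, n = 4 each), which is -0.50 on the log2 scale (SE 0.07, adjusted p = 0.0010). Bmpr1a, a BMP type 1 receptor, fell by 0.35 on the log2 scale. Stat3, the transcription factor downstream of interleukin 6, rose by 0.70. Scaled by library totals, Hfe2 was -0.16, Bmpr1a -0.01 and Stat3 1.04, and of these only Stat3 passed. Erfe (erythroferrone), a secreted protein that binds BMP6 and lowers Hamp and that muscle also makes, was 5.89, 4.25, 7.96 and 4.92 CPM in WT gastrocnemius and 1.83, 2.31, 2.14 and 0.6253 CPM in Mtm1KO. It fell without overlap (-1.76, SE 0.35, adjusted p = 0.0052).

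Erfe was lower in diaphragm too. It was 5.41, 3.18, 5.37 and 4.40 CPM in WT and 1.95, 1.91 and 1.31 CPM in Mtm1KO, again without overlap (-1.41, SE 0.26, adjusted p = 0.26 by edgeR, and -1.39 with an adjusted p of 0.00036 by DESeq2). By DESeq2 it passed in each of the 7 fits that left out 1 library, at -1.54 to -1.23. No other regulator passed in diaphragm by either tool, none passed in heart or liver, and 3, 4 and 2 of those tested in diaphragm, heart and liver had an unadjusted edgeR p under 0.05. Hfe2 had log2 fold changes of -0.15 in diaphragm, 0.08 in heart and -0.11 in liver.

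Of 17 transport and storage partners, 2 rose and 4 fell in gastrocnemius, where 29% of all genes passed in either direction. Fbxl5, the ubiquitin ligase subunit that senses iron and removes iron regulatory protein 2, fell by 0.38 on the log2 scale, and Pcbp2, an iron chaperone, fell by 0.31. Steap3, the endosomal reductase that prepares iron for Slc11a2, fell by 0.32. Scaled by library totals, Fbxl5, Pcbp2 and Steap3 stood at -0.04, 0.03 and 0.01 and did not pass, and the call for Steap3 was also lost in 5 of 8 fits that left out 1 library. Hephl1, a copper-containing ferroxidase, went from 0.657 ± 0.183 to 4.69 ± 5.98 CPM (SD, n = 4 each; 2.80, SE 0.80, adjusted p = 0.026). Without Mtm1KO replicate 3 the value was 1.38 (adjusted p = 0.021), without any 1 of the 4 WT libraries the call was lost (adjusted p up to 0.073), and limma gave 2.02 (adjusted p = 0.13). In the other tissues 0 of 17, 0 of 16 and 0 of 15 partners tested passed by edgeR or DESeq2, and 0, 1 and 1 had an unadjusted edgeR p under 0.05.

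Heme synthesis and iron-sulfur cluster assembly, which use iron in the mitochondrion, were also read in gastrocnemius. Of 14 heme synthesis genes 1 rose and 6 fell (median log2 fold change -0.24), and 14.9% of all genes fell. Fech, which inserts iron into protoporphyrin, went from 189 ± 4.86 to 147 ± 6.59 CPM (SD, n = 4 each; -0.38, SE 0.06, adjusted p = 0.0014). Alas1, the first enzyme of the pathway, fell by 0.49 on the log2 scale, while Slc25a37 (mitoferrin 1), which brings iron into the mitochondrion, rose by 0.37. Of 17 iron-sulfur cluster genes 0 rose and 5 fell (median -0.20). Isca1 went from 110 ± 4.47 to 70.1 ± 4.08 CPM (SD, n = 4 each; -0.67, SE 0.06, adjusted p = 0.00018), and Nfs1, the cysteine desulfurase, Bola3 and Nfu1 fell by 0.27, 0.26 and 0.24, calls that were lost in 4, 4 and 6 of 8 fits that left out 1 library. Scaled by library totals, Isca1 still passed at -0.33, Fech and Alas1 were -0.05 and -0.16 and did not, and Nfs1, Bola3 and Nfu1 stood at 0.07, 0.08 and 0.10, so the direction of the last 3 holds only relative to the median gene. The 6 skeletal muscle markers all fell too, from 195000 to 234600 CPM in WT to 119400 to 133200 CPM in Mtm1KO.

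Among 10 genes of heme scavenging, export and breakdown, 2 rose and 1 fell in gastrocnemius, where 29% of all genes passed. Blvrb, a biliverdin reductase acting after Hmox1, rose by 0.37 and Lrp1, the receptor for heme-hemopexin, by 0.54 on the log2 scale, while the heme transporter Flvcr2 fell by 0.83. The call for Flvcr2 was lost in 6 of 8 fits that left out 1 library (adjusted p up to 0.095) and with library totals (-0.49, adjusted p = 0.15), and those for Blvrb and Lrp1 were lost in 3 of 8 each. Of 7 targets of Nrf2, a stress factor that also drives Hmox1, 1 rose in gastrocnemius, where 14.1% of all genes did. Among the 7, 4 had a log2 fold change above 0 and 3 below. The 1 that rose was Srxn1 (sulfiredoxin), from 27.5 ± 3.27 to 66.2 ± 22.3 CPM (SD, n = 4 each). Its log2 fold change was 1.25 (SE 0.23, adjusted p = 0.0034). The part of Nrf2 in the Hmox1 value was not tested. In heart, DESeq2 called 2 scavengers that edgeR did not. Hp (haptoglobin), which binds free hemoglobin and which fat cells also make, was 23.7 ± 14.3 CPM in WT and 4.57 ± 0.961 CPM in Mtm1KO (SD, n = 4 each; -2.39, SE 0.41, adjusted p = 0.35 by edgeR and 7.3e-07 by DESeq2). The 8 white adipocyte markers summed to 87.9 to 210 CPM in WT hearts and 52.1 to 77.4 CPM in Mtm1KO hearts. Of these markers 7 of 8 passed lower by DESeq2, where 0.461% of all genes in heart passed in either direction. By edgeR none of them passed. Their part in the Hp value was not tested. Hpx (hemopexin), a hepatocyte product, was 0.495 ± 0.223 CPM in WT and 1.83 ± 0.764 CPM in Mtm1KO (SD, n = 4 each). Its log2 fold change was 1.88 (SE 0.40, adjusted p = 0.46 by edgeR and 0.0038 by DESeq2). Alb was also higher in the Mtm1KO hearts, but the 10 hepatocyte markers did not all move that way. In heart 8 had a log2 fold change above 0 and 2 below, and their sums overlapped between the genotypes. None passed by edgeR and 1 passed higher by DESeq2. Their part in the Hpx value was not tested.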

How the data were processed

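Total RNA of 30 libraries was sequenced from a stranded mRNA kit. The authors aligned reads with STAR 2.5.3a to mm10 and counted uniquely aligned reads per gene with HTSeq 0.6.1p1 in union mode, after bcl2fastq 2.17.1.14 and cutadapt 1.10. The deposited values are raw counts, and the strand setting of the counting is not given in the sources used here. Groups were taken from the sample labels. Genotypes were compared within each tissue with edgeR 4.0.16 (quasi-likelihood test, TMM, filterByExpr with a count minimum of 10, Benjamini-Hochberg adjusted p under 0.05 over all genes tested, R 4.3.3). DESeq2 1.42.0, limma 3.58.1 (voom), other scalings, no filter, marker scores as covariates, a replicate block and leaving out each library were alternatives. WT tissues were compared in 1 fit of 15 libraries, and genotype effects between tissues in 1 fit of 30. Scripts were tested on simulated data. Marker scores used log2(CPM + 1) and correlations log2(CPM + 0.5), over genes of mean CPM of at least 1. Floors and intervals cover counting error only, a count of 0 being read as up to 3 counts. The 10 genes and the pathway and marker lists were chosen with earlier results of these data known. Partner genes were named by a rule, up to 4 per list and tissue with the smallest p among those past the threshold by edgeR or, where none passed, up to 2 by DESeq2. Ftmt and Ahsp were not analysed here, and 1 gene that the rule names is not reported here.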

Additional observations from a re-analysis of the deposited data

Results flagged for a closer look

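In 8 of 60 pairs of a gene and a group of 4 libraries, 1 library lay farther from the rest than Dixon's 95% limit allows, where chance gives about 1 in 20, and groups of 3 libraries were not tested. Hamp was 1.409 CPM in Mtm1KO heart replicate 2, against 0.346 to 0.519 in the other 3. WT heart replicate 4 stood apart for Tfrc, at 70.58 CPM against 370.2 to 388.5, and for Slc11a2, at 26.49 CPM against 34.5 to 35.9. Tfr2 was 0.06226 CPM in WT heart replicate 1 and 0 in the others. That flag says nothing, because any value above 0 would raise it there. The value is also below the 0.0937 to 0.119 CPM that a count of 0 allows in heart. Slc40a1 was 24.38 CPM in WT diaphragm replicate 3, against 57.8 to 62.5, and was high in gastrocnemius replicate 3 of both genotypes, at 58.66 CPM in WT against 35.5 to 37.9 and at 41.72 CPM in Mtm1KO against 21.9 to 25.1. Slc11a2 was 70.92 CPM in Mtm1KO liver replicate 4, against 63.2 to 64.3.

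The genotype effect on Hmox1 differed between tissues in edgeR's test of the difference over the 30 libraries. It was -0.9028 for liver minus gastrocnemius (adjusted p = 0.048) and -1.166 for heart minus gastrocnemius (adjusted p = 0.0070) on the log2 scale.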

How the results depend on the processing

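Hmox1 in gastrocnemius and Hamp in heart kept their direction under every alternative but 1, the macrophage score for Hmox1. Counts of iron genes past the threshold in gastrocnemius moved from 2 to 5 with DESeq2, to 1 with a fit of all 30 libraries or a hepatocyte score, to 0 with a macrophage score or a fold threshold, and between 1 and 5 leaving out 1 library. In diaphragm the count moved from 0 to 1 with DESeq2 and between 0 and 2 leaving out 1 library, and in heart from 0 to 1 with DESeq2 and between 0 and 1. In WT, heart and gastrocnemius differed in 2 rather than 5 members with a fold threshold. For effects between tissues, liver and gastrocnemius differed in 0 rather than 1 member with DESeq2 size factors, a fold threshold or only those tissues, and in 0 to 1 leaving out 1 library. Heart and gastrocnemius differed in 2 members with only those tissues and 3 with DESeq2, and diaphragm and gastrocnemius in 0 to 1 leaving out 1 library, the 1 without Mtm1KO diaphragm replicate 2. The causes were not tested.

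With library totals alone, log2 fold changes that turned in gastrocnemius were 0.315 for Fth1, 0.071 for Slc11a2, 0.034 for Pcbp2, 0.014 for Steap3, 0.071 for Nfs1, 0.076 for Bola3 and 0.1 for Nfu1. Hmox1 in liver became -0.019, and 0 with limma. In WT, Slc40a1 became 0.193 for heart minus gastrocnemius, and Tfrc 0.173 and Fth1 0.335 for diaphragm minus gastrocnemius. The macrophage score turned, in gastrocnemius, Trf to -2.427, Fth1 to 0.253, Hmox1 to -0.661, Pcbp2 to 0.052, Hephl1 to -2.298, Lrp1 to -0.329, Nfs1 to 0.081, Bola3 to 0.091 and Nfu1 to 0.091, Fth1 to 0.014 in diaphragm, and Trf to 0.265 and Fth1 to -0.038 in heart. In diaphragm the erythroid score turned Hamp to 1.524, Tfr2 to 1.981, Trf to 1.204, Fth1 to 0.032, Ftl1 to 0.689, Slc40a1 to 0.281 and Hamp2 to 0.242, and the hepatocyte score Tfr2 to 0.223 and Ftl1 to 0.084. In heart the atrial score turned Tfrc to -0.396, Trf to 0.504, Fth1 to -0.118, Ftl1 to 0.007, Slc40a1 to 0.245 and Bmp6 to 0.231. None of these passed except, with library totals, Fth1 in gastrocnemius and between diaphragm and gastrocnemius in WT.

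Leaving out 1 library turned some values whose main fit had not passed. In diaphragm they ran from -2.87 to 0.176 for Hamp, -3.332 to 0.451 for Tfr2, -2.586 to 0.129 for Trf, -1.318 to 0.104 for Slc40a1, -1.198 to 0.313 for Ftl1 and -0.306 to 0.046 for Fth1. In gastrocnemius they ran from -0.092 to 0.018 for Fth1 and -0.222 to 0.225 for Trf, and in heart from -0.048 to 0.143 for Fth1, -0.053 to 0.427 for Tfrc and -0.311 to 0.166 for Trf. In liver they ran from -0.056 to 0.192 for Fth1, -0.129 to 0.087 for Hmox1 and -0.188 to 0.029 for Slc11a2, and for heart minus diaphragm in WT from -0.005 to 0.191 for Slc11a2 and -0.395 to 0.076 for Tfrc.

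Replicate numbers are shared by the genotypes but not tied to litters in the labels, and the samples were not treated as paired. Within a tissue, deviations of same-numbered WT and Mtm1KO libraries correlated between -0.68 and 0.494. Unlike numbers reached -0.872 and 0.875 in diaphragm, so these values cannot settle pairing. The labels do not say whether libraries of different tissues came from the same mouse, and the main fits over several tissues took every library as independent. With the replicate block, Bmp6 in gastrocnemius had an adjusted p of 0.0999 and Slc40a1 was -0.63 with an adjusted p of 0.0020, so 2 iron genes passed, Hmox1 and Slc40a1 in place of Hmox1 and Bmp6. Calls lost with the block were also Hamp between heart and diaphragm in WT (-2.82, adjusted p = 0.050), Mtm1 in diaphragm, and Flvcr2 and Steap3 in gastrocnemius.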
